A study of Mus musculus with 10 samples.

Results

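The genes described here form a set of 43 DNA repair genes, covering the Fanconi pathway, homologous recombination and neighbouring repair routes, among 18051 genes tested. They were taken by name: an array probe belonged to the set where its gene is one of the 43, and the file's own gene name was checked against the probe's accession, so that probes listed under an old synonym that now denotes another gene were left out. Of the 43, 42 had a probe that passed the filter on dim signals and were tested, and Brca1 did not. RNA was measured in RAW264.7, a mouse macrophage-like cell line, on 10 single-colour arrays, 2 in each of 5 groups. The groups were Dex (dexamethasone), FF (fluticasone furoate), VSG22, VSGC12 and EtoH. The first 2 agents are glucocorticoid drugs, while the labels identify VSG22 and VSGC12 as glucocorticoids under code names only. Cells in these 4 groups were given 100 nM of the agent and, 1 hour later, 1 µg/ml of LPS (lipopolysaccharide), a bacterial product to which macrophages react with inflammation. Total RNA was collected at 16 hours. The labels give EtoH as ethanol-treated cells without saying whether they received LPS, so it is read as solvent without glucocorticoid in every comparison. They also do not say whether the 2 replicates of a group were separate cultures, so the p-values measure the spread between arrays, which may be technical.

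The Fanconi pathway repairs crosslinks between the strands of DNA. A core complex of Fanconi proteins attaches ubiquitin to the paired proteins FANCI and FANCD2, which then recruit nucleases, and the resulting break is mended by homologous recombination, in which BRCA1, BRCA2 and their partners prepare resected DNA to invade a matching strand. Homologous recombination copies from a sister chromatid and so works in cells that have replicated their DNA, whereas end joining, base excision and mismatch repair use other enzymes; many of these genes are known to be transcribed most in dividing cells.

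On each array, 40.1% to 44.4% of non-control spots were well above background; 0 spots were saturated. The difference between replicates had an SD of 0.63 on the log2 scale over all genes in Dex, against 0.33 to 0.41 elsewhere. For the DNA repair members it was 0.41 in Dex, 0.45 in FF, 0.29 in VSG22, 0.23 in VSGC12 and 0.35 in EtoH. All 8 macrophage markers listed were well above background on every array, with a summed linear signal of 615 to 684 on the glucocorticoid arrays, against 508 and 509 on the EtoH arrays. Itgam (log2 1.29), Csf1r (1.18) and Lyz2 (0.94) were higher in the mean of the 4 glucocorticoids, Adgre1 (-0.24) was lower and the other 4 were not called. B cell markers were well above background on no array, and 0 of 5 epithelial, 2 of 6 fibroblast, 2 of 6 T cell and 3 of 5 neutrophil markers passed the filter. The T cell receptor gene Cd3d and the neutrophil gene Ngp were above background on no array. The summed linear signal of the T cell markers tested was 38.1 to 113 on the glucocorticoid arrays, against 25.1 and 26.4 on the EtoH arrays. The log2 differences were 1.23 for Cd4 and -0.16, not called, for Cd3e. That sum for the neutrophil markers was 71.0 to 164 on the glucocorticoid arrays, against 55.8 and 71.3 on the EtoH arrays. These markers were split, with Elane higher (1.12), Camp lower (-0.52) and S100a8 not called (0.13). The part of T cell and neutrophil markers in the results was not tested. Between 39 and 43 of the members were well above background on a glucocorticoid array, against 37 and 32 on the EtoH arrays. In RNA from whole cultures, more cells that express a gene and more of its RNA per cell cannot be told apart.

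Most of the DNA repair members were higher in cells given a glucocorticoid and LPS than in EtoH cells. Comparing the mean of the 4 glucocorticoids with EtoH, 31 of the 42 tested members rose, 3 fell and 8 were not called (limma, Benjamini-Hochberg adjusted p under 0.05). Over all genes tested, 21.6% were called higher and 22.5% lower in the same comparison. The members were chosen with earlier results of these data known, so these shares are a description and no test. Some members passed the filter on dim signals through glucocorticoid groups alone, which favours a call of higher for them. Among genes detected on all 10 arrays, 25 of 31 members were called, 22 higher and 3 lower. Of all 7623 genes called there, 49.7% were higher. The share of all genes tested there that rose was not computed. The median log2 difference was 0.86 over the 42 members and 0 over all genes. Setting the 5 genes not detected in EtoH cells at the lower bound of their rise left it at 0.86. That step could not move the median, because all 5 bounds also lie above it. As fitted, 18 members rose at least 2-fold, and the share of all genes that did so was not computed. That count depends on the background step. Another method (normexp) was run with 50 signal units added to every spot. With it, Fanca at 0.95, Eme1 at 0.69, Brip1 at 0.65 and Fancm at 0.36 were below 2-fold. On all 8 glucocorticoid arrays, 31 members lay above both EtoH arrays, which 22.9% of all genes did, and 2 lay below both, which 24.7% of all genes did. The rise was not even. By group, the median log2 difference as fitted was highest for the FANCI-FANCD2 pair (3.78) and the factors of strand exchange (2.36). The value of the pair rests on EtoH signals near background. Fancd2 was not detected there and was at least 3.18-fold higher with the software's background subtraction. With normexp the log2 differences were 2.31 for Fanci and 1.10 for Fancd2, the latter below that bound. The genes of the complex that senses broken ends and 2 of the core complex were not called.

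**Figure D1:**
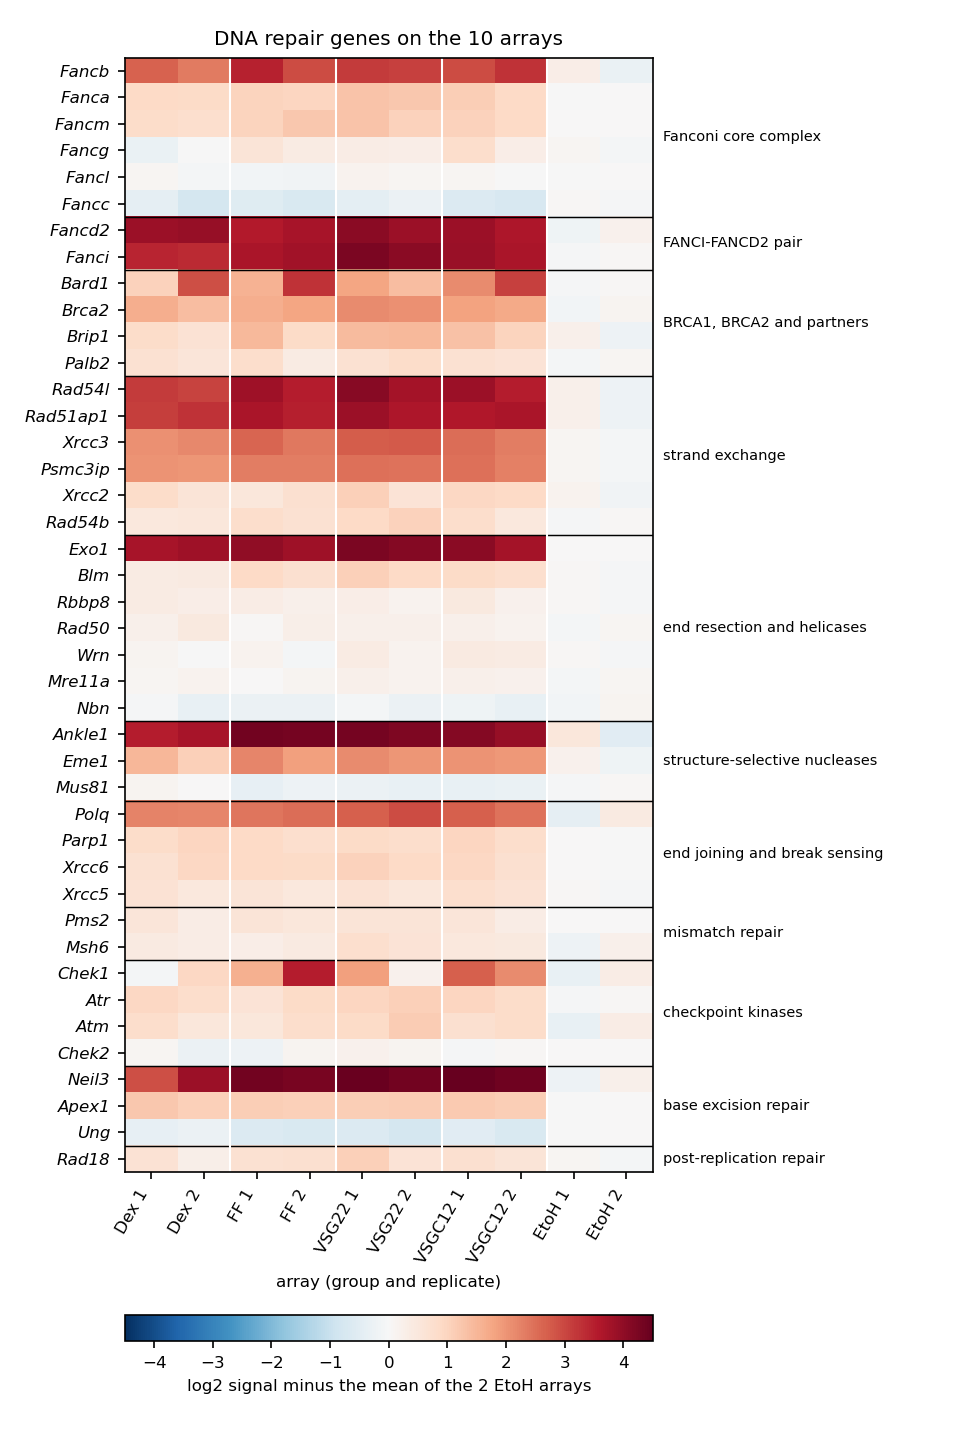
Log2 signal of the 42 tested members (rows, by role) on the 10 arrays (columns), less the mean of the 2 EtoH arrays, with red for higher and blue for lower. Fancd2, Fanci, Exo1, Ankle1 and Neil3 are deep red on the 8 glucocorticoid arrays, and Fancc and Ung are pale blue on all 8.

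Promoters are shown for 4 of the members with large rises and for Ung, which fell, to let the letters at their gene starts be compared. Each line holds the bases from 100 before the gene start to 50 from it onward, with the start base counted as 1, on RefSeq GRCm38.p6. Capitals mark matches, on either strand, to 1 of 4 E2F-type words, to the CHR word TTTGAA, or to the CCAAT box. The E2F-type words are TTCCCGC in the first place, then TTCGCGC as the second, with TTGCCGC as the third and finally TTGGCGC. The intervals are Ankle1 chr8:71405912-71406061 (plus strand), Fanci chr7:79392238-79392387 (plus), Rad51ap1 chr6:126939538-126939687 (minus), Polq chr16:37011686-37011835 (plus) and Ung chr5:114130335-114130484 (plus).
Ankle1: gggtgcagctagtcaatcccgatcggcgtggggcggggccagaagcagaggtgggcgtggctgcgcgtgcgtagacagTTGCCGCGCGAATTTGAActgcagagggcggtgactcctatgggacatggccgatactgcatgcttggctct
Fanci: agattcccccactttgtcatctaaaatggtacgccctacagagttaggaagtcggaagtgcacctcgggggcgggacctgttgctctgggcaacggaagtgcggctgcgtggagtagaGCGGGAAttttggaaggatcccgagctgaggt
Rad51ap1: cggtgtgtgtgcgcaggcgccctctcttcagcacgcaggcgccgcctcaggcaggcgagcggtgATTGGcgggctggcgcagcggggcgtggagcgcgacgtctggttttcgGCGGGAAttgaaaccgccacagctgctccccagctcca
Polq: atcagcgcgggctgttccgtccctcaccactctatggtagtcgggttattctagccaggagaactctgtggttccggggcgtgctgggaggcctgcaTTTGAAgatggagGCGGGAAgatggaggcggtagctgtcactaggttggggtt
Ung: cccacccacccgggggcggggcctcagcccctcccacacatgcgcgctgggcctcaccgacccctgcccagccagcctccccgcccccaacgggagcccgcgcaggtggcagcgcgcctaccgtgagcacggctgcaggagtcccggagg

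In Ankle1, the match starting at -22 overlaps a second at -17 and runs into the CHR letters at -10. Fanci, Rad51ap1 and Polq each carry the reverse complement of the first E2F-type word just after the start, at 19, 13 and 11. Ung has none of these letters in the bases shown. The 4 risers shown were picked for their words near the start. Other risers lacked such words: the 300-base windows of Rad54l, Xrcc3 and Psmc3ip held no E2F-type word, and that of Neil3 held neither E2F-type, CHR nor CCAAT letters. Over the 300-base windows of the RefSeq table (250 before to 50 after a start), 35 members had 37 windows, and 19 of these (51.4%) held at least 1 E2F-type word, against 9.57% of all 32851 windows. The share was 53.6% (15 of 28 windows) for members that rose and 44.4% (4 of 9) for the other members. Those 4 were Brca1, which was not tested, and Chek1, Chek2 and Fancg, which were not called. Rad18 and Rad54l counted with more than 1 overlapping window each. CCAAT letters lay in 56.8% of the member windows and 37.4% of all windows, and the CHR letters in 10.8% and 17.9%. The glucocorticoid receptor hexamer AGAACA was in 8.11% of the member windows and 19.0% of all, and 2 such hexamers facing each other with 3 bases between them were in 0 of the 37 and in 3 of all windows. These are counts of letters on either strand, not of binding sites, and base composition was not matched.

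Among the Fanconi core complex genes, 3 of 6 rose, 1 fell and 2 were not called. Fancb (X-linked, part of the catalytic module; probe at chrX:161434946-161435005 on mm9) had log2 signals, relative to the array's 75th percentile, of -0.57 and -0.86 in Dex cells, 0.25 and -0.26 in FF cells, -0.08 and -0.15 in VSG22 cells and -0.29 and 0.05 in VSGC12 cells, against -2.91 and -3.51 in EtoH cells. The 8 glucocorticoid arrays lay well above both EtoH arrays, on 1 of which the probe was well above background. The log2 difference was 2.97 ± 0.20 (SE, 8 arrays against 2, limma adjusted p = 7.7e-05), 7.84-fold. Fanca, a core subunit, was higher by 1.03 ± 0.07, and Fancm, the translocase that brings the complex to DNA, by 1.00 ± 0.09. Fancg, another core subunit, and Fancl, the ubiquitin ligase itself, differed by 0.30 and 0.01 and were not called, though Fancg was called without VSGC12 replicate 2 (0.36) and without both Dex arrays (0.45).

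Fancc, another core subunit, fell (probe at chr13:63412847-63412887). Its log2 signals were -1.57 and -1.94 in Dex cells, -1.69 and -1.85 in FF cells, -1.59 and -1.41 in VSG22 cells and -1.76 and -1.89 in VSGC12 cells, against -1.11 and -1.20 in EtoH cells. All 8 glucocorticoid arrays were below both EtoH arrays, and of the 4 group means that of VSG22 was nearest to EtoH. The log2 difference was -0.56 ± 0.11 (adjusted p = 0.0069), and it lost its call without EtoH replicate 1 (-0.51) and where array medians were subtracted (-0.44).

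Both genes of the FANCI-FANCD2 pair, the substrate of the core complex, rose. Fanci (chr7:86595076-86595135) had log2 signals of 0.02 and -0.04 in Dex cells, 0.27 and 0.38 in FF cells, 0.83 and 0.65 in VSG22 cells and 0.48 and 0.27 in VSGC12 cells, against -3.45 and -3.35 in EtoH cells. The groups did not overlap with EtoH, and among the glucocorticoids VSG22 was highest and Dex lowest, without overlap. The log2 difference of the mean of the 4 was 3.75 ± 0.09 (adjusted p = 2.6e-06), 13.5-fold. For Fancd2 (chr6:113541170-113541229) the signals were -1.85 and -1.78 in Dex cells, -2.12 and -2.0 in FF cells, -1.62 and -1.85 in VSG22 cells and -1.83 and -2.04 in VSGC12 cells, against -5.90 and -5.49 in EtoH cells. Fancd2 was not well above background in EtoH cells, so its rise is a bound of at least 3.18-fold, taken against the lowest detected signal there. The bound holds for the software's background subtraction only. Its fitted log2 difference was 3.81 ± 0.13 (adjusted p = 5.8e-06). On a Dex array, the spots of Fancd2, Exo1, Rad54l and Blm lie where neighbouring spots are bright on that array alone, and the 4 genes kept their calls in a fit without patch spots.

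Of BRCA1, BRCA2 and their partners, the 4 tested genes rose. Brca2, which acts at the step before strand invasion, was higher by 1.76 ± 0.10, Brip1, a helicase that binds BRCA1, by 1.13 ± 0.19, and Palb2, which ties BRCA1 to BRCA2, by 0.65 ± 0.12. Palb2 lost its call without EtoH replicate 1 (0.58), and its other probe was not called (0.48, adjusted p = 0.082). Bard1, the partner of BRCA1 in its ubiquitin ligase, was uneven between replicates. Its brightest probe (chr1:71074902-71074961) gave log2 signals of 3.24 and 5.10 in Dex cells, 3.76 and 5.46 in FF cells, 3.96 and 3.60 in VSG22 cells and 4.32 and 5.27 in VSGC12 cells, against 2.13 and 2.27 in EtoH cells. All 8 glucocorticoid arrays were above EtoH, but the replicates of Dex and FF differed by more than 1 log2 unit. The difference was 2.14 ± 0.58 (adjusted p = 0.024) and was not called when either EtoH replicate was left out (2.07 without the first, 2.21 without the second). A second Bard1 probe, with even replicates, gave 2.03 ± 0.12 (adjusted p = 4.3e-05 over all probes tested). Brca1, the ubiquitin ligase that gives the group its name, had 1 probe, well above background on 2 of the 10 arrays. Its log2 signals were -4.49 and -4.11 in Dex cells, -4.13 and -3.50 in FF cells, -3.41 and -3.79 in VSG22 cells and -3.19 and -3.23 in VSGC12 cells, against -4.84 and -4.64 in EtoH cells. All 8 glucocorticoid arrays lay above EtoH. Fitted with no filter on dim probes, its difference was 1.01 ± 0.20 (adjusted p = 0.023), from signals mostly not well above background.

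All 6 genes of the strand exchange group rose. Rad54l (chr4:115769618-115769677), a motor protein that drives strand invasion, had log2 signals of 0.71 and 0.60 in Dex cells, 1.37 and 1.10 in FF cells, 1.65 and 1.30 in VSG22 cells and 1.43 and 1.10 in VSGC12 cells, against -2.19 and -2.67 in EtoH cells. Rad51ap1 (chr6:126873482-126873541), which aids strand invasion, had 1.84 and 1.98 in Dex cells, 2.39 and 2.24 in FF cells, 2.57 and 2.36 in VSG22 cells and 2.34 and 2.39 in VSGC12 cells, against -1.05 and -1.50 in EtoH cells. In both, the Dex arrays were the lowest of the 8 and still far above EtoH. The log2 differences were 3.59 ± 0.17 (adjusted p = 1.9e-05), 12-fold, for Rad54l and 3.54 ± 0.13 (adjusted p = 7.9e-06), 11.6-fold, for Rad51ap1.

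Xrcc3 (chr12:113041404-113041463), a factor of homologous recombination, had log2 signals of -1.60 and -1.50 in Dex cells, -1.03 and -1.28 in FF cells, -0.91 and -0.88 in VSG22 cells and -1.14 and -1.33 in VSGC12 cells, against -3.55 and -3.75 in EtoH cells. Psmc3ip (chr11:100954219-100954278), a strand exchange factor best known from meiosis, had 0.20 and 0.17 in Dex cells, 0.49 and 0.49 in FF cells, 0.67 and 0.65 in VSG22 cells and 0.67 and 0.47 in VSGC12 cells, against -1.70 and -1.91 in EtoH cells. The Dex arrays were again the lowest of the 8 in each. The differences were 2.44 ± 0.10 (adjusted p = 1.1e-05), 5.43-fold, for Xrcc3 and 2.28 ± 0.08 (adjusted p = 7.5e-06), 4.86-fold, for Psmc3ip. Xrcc2, another such factor, was higher by 0.77 ± 0.15 and Rad54b, a relative of Rad54l, by 0.71 ± 0.10. Xrcc2 was not called without EtoH replicate 2 (0.59), though its other probe was (0.99 ± 0.11).

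**Figure D2:**
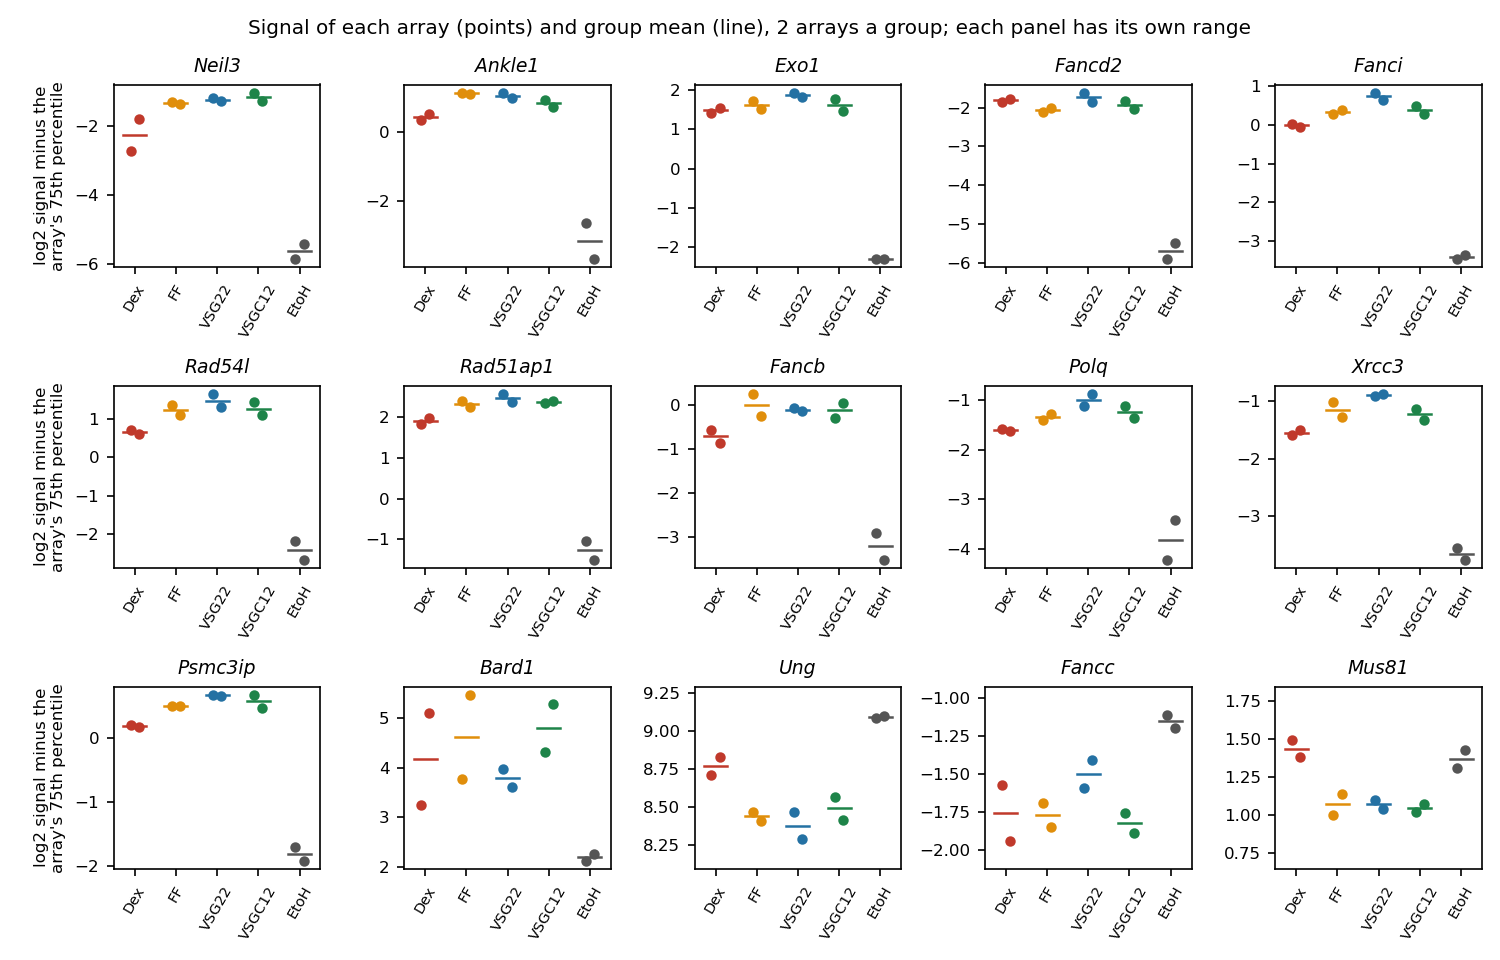
Log2 signal relative to the array's 75th percentile (vertical axes, a range of its own in each panel) for the 12 members with the largest called differences and the 3 that fell, by group; points are arrays and lines the mean of 2. In the first 12 panels all glucocorticoid arrays lie above EtoH, and Ung and Fancc lie below it, while the Dex arrays of Mus81 overlap EtoH.

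The genes that resect broken ends or unwind DNA were split. Exo1 (chr1:177838682-177838741), the exonuclease of long-range resection, had log2 signals of 1.42 and 1.54 in Dex cells, 1.71 and 1.53 in FF cells, 1.93 and 1.83 in VSG22 cells and 1.76 and 1.46 in VSGC12 cells, against -2.29 and -2.29 in EtoH cells. Its difference was 3.94 ± 0.10 (adjusted p = 2.8e-06), 15.3-fold. Blm, the helicase of Bloom syndrome that acts with EXO1, was higher by 0.74 ± 0.08. By contrast, the 3 subunits of the complex that senses broken ends were not called: Rad50 differed by 0.23, Mre11a by 0.16 and Nbn by -0.23. Wrn, the helicase of Werner syndrome, differed by 0.18 and was not called. Rbbp8, which starts resection with that complex, was higher by 0.29 ± 0.09 (adjusted p = 0.034), a call that was lost in 9 of 22 alternatives, among them leaving out FF replicate 1 (0.27), VSG22 replicate 1 (0.27) and either EtoH replicate (0.33 without the first, 0.25 without the second).

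Of the 3 structure-selective nucleases, 2 rose and 1 fell. Ankle1 (chr8:73933743-73933802), an endonuclease that cuts branched DNA and bridges between chromosomes, had log2 signals of 0.35 and 0.54 in Dex cells, 1.16 and 1.12 in FF cells, 1.14 and 1.02 in VSG22 cells and 0.96 and 0.75 in VSGC12 cells, against -2.66 and -3.69 in EtoH cells. The Dex arrays were the lowest of the 8, and the probe was well above background on 1 EtoH array. The difference was 4.06 ± 0.24 (adjusted p = 4.3e-05), 16.7-fold, and a second Ankle1 probe, well above background on 8 of the 10 arrays, gave signals of -1.09 to 0.31 on the glucocorticoid arrays, against -3.99 and -4.78 in EtoH cells. Eme1, the non-catalytic partner of MUS81, was not well above background in EtoH cells (fitted difference 1.84 ± 0.15). With the software's background subtraction it was at least 2.83-fold higher.

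Mus81, the catalytic partner of EME1, was lower in the mean of the 4 (chr19:5483932-5483991). The Mus81 signals were 1.49 and 1.38 in Dex cells, 1.00 and 1.14 in FF cells, 1.10 and 1.04 in VSG22 cells and 1.02 and 1.07 in VSGC12 cells, against 1.31 and 1.43 in EtoH cells. The Dex arrays overlapped EtoH, and the other 6 glucocorticoid arrays were below it. The difference of -0.22 ± 0.07 (adjusted p = 0.042) was lost in 10 of 22 alternatives. Among these were leaving out Dex replicate 2 (-0.20), FF replicate 1 (-0.20), VSG22 replicate 1 (-0.22) or 2 (-0.21), VSGC12 replicate 1 (-0.21) or 2 (-0.22), and EtoH replicate 1 (-0.28) or 2 (-0.16).

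All 4 genes grouped as end joining and break sensing rose. Polq (chr16:37095392-37095451), the polymerase of an end joining route that uses short repeats, had log2 signals of -1.58 and -1.62 in Dex cells, -1.40 and -1.29 in FF cells, -1.12 and -0.88 in VSG22 cells and -1.13 and -1.37 in VSGC12 cells, against -4.21 and -3.41 in EtoH cells. It was not well above background in EtoH cells and had a fitted difference of 2.51 ± 0.19 (adjusted p = 0.00014). With the software's background subtraction it was at least 4.77-fold higher. Parp1, a sensor of strand breaks, was higher by 0.86 ± 0.08, and the end-binding Ku genes Xrcc6 and Xrcc5 by 0.86 ± 0.09 and 0.60 ± 0.08. The 2 mismatch repair members rose by less, Pms2 by 0.50 ± 0.08 and Msh6 by 0.47 ± 0.11; Msh6 lost its call without EtoH replicate 1 (0.26).

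Among the checkpoint kinases, Atr, which responds to stalled replication, was higher by 0.87 ± 0.09 and Atm, which responds to double-strand breaks, by 0.77 ± 0.19. Atm lost its call without EtoH replicate 1 (0.43). Chek1, the kinase activated by ATR, had the widest scatter of the members, with log2 signals from -4.08 to -0.48 on the 8 glucocorticoid arrays, against -4.34 and -3.66 in EtoH cells. Its difference of 1.61 ± 0.61 was not called (adjusted p = 0.072), and it was called without FF replicate 1 (1.85) and without VSG22 replicate 2 (1.81). Chek2, the kinase activated by ATM, had a difference of 0.00 ± 0.13.

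Of the 3 base excision members, 2 rose and 1 fell. Neil3 (chr8:54672466-54672525), a glycosylase that also opens crosslinks between strands, had log2 signals of -2.72 and -1.79 in Dex cells, -1.30 and -1.36 in FF cells, -1.17 and -1.28 in VSG22 cells and -1.03 and -1.26 in VSGC12 cells, against -5.84 and -5.41 in EtoH cells. The probe was not well above background in EtoH cells nor on 1 of the 2 Dex arrays. With the software's background subtraction this gave a bound of at least 4.18-fold for the mean of the 4 (fitted difference 4.13 ± 0.23, adjusted p = 3.7e-05). Apex1, which cuts at the site a glycosylase leaves, was higher by 1.12 ± 0.06. Rad18, a ubiquitin ligase of post-replication repair, was higher by 0.67 ± 0.14 with 1 probe, but its other probe gave 0.06 ± 0.09 and was not called; the first lost its call without EtoH replicate 2 (0.59).

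Ung, the glycosylase that removes uracil from DNA, fell (chr5:114588731-114588790). Its log2 signals were 8.71 and 8.83 in Dex cells, 8.47 and 8.41 in FF cells, 8.47 and 8.29 in VSG22 cells and 8.57 and 8.42 in VSGC12 cells, against 9.09 and 9.10 in EtoH cells. All 8 glucocorticoid arrays were below both EtoH arrays. The difference was -0.57 ± 0.08 (adjusted p = 0.0013), 1.49-fold lower, and it was not called where array medians were subtracted (-0.45).

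Dim probes gave sizes that depend on the background step. With normexp correction in place of the software's subtraction, 31 members rose and 3 fell as before. This setting also added 50 signal units to every spot, and the effects of the correction and of the constant were not told apart. Taken as a ratio of log2 values, 17 of the 42 differences were more than 1.5 times smaller. The log2 differences became 1.32 for Neil3, 1.10 for Fancd2, 1.10 for Polq, 0.69 for Eme1, 1.16 for Xrcc3, 1.63 for Fancb, 2.31 for Fanci and 2.61 for Ankle1. For Neil3, Fancd2, Polq and Eme1 these lie below the bounds given above, which hold for the software's subtraction alone. Also among the 17, Fancm became 0.36, Brip1 0.65, Palb2 0.33 and Xrcc2 0.40. By that ratio the values shrank by less for other risers, to 3.05 for Exo1, 2.95 for Rad51ap1, 2.57 for Rad54l, 1.64 for Psmc3ip and 1.41 for Brca2. The arrays lay on 2 slides, each with 1 array of every group. Within each slide, all 34 called members kept their direction. For all but Mus81 this followed from the lack of overlap with EtoH and adds nothing to it. The median gap between slides was 0.14 and the largest 0.98, for Ankle1, whose log2 difference was 3.57 on slide 1 and 4.55 on slide 2.

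**Figure D3:**
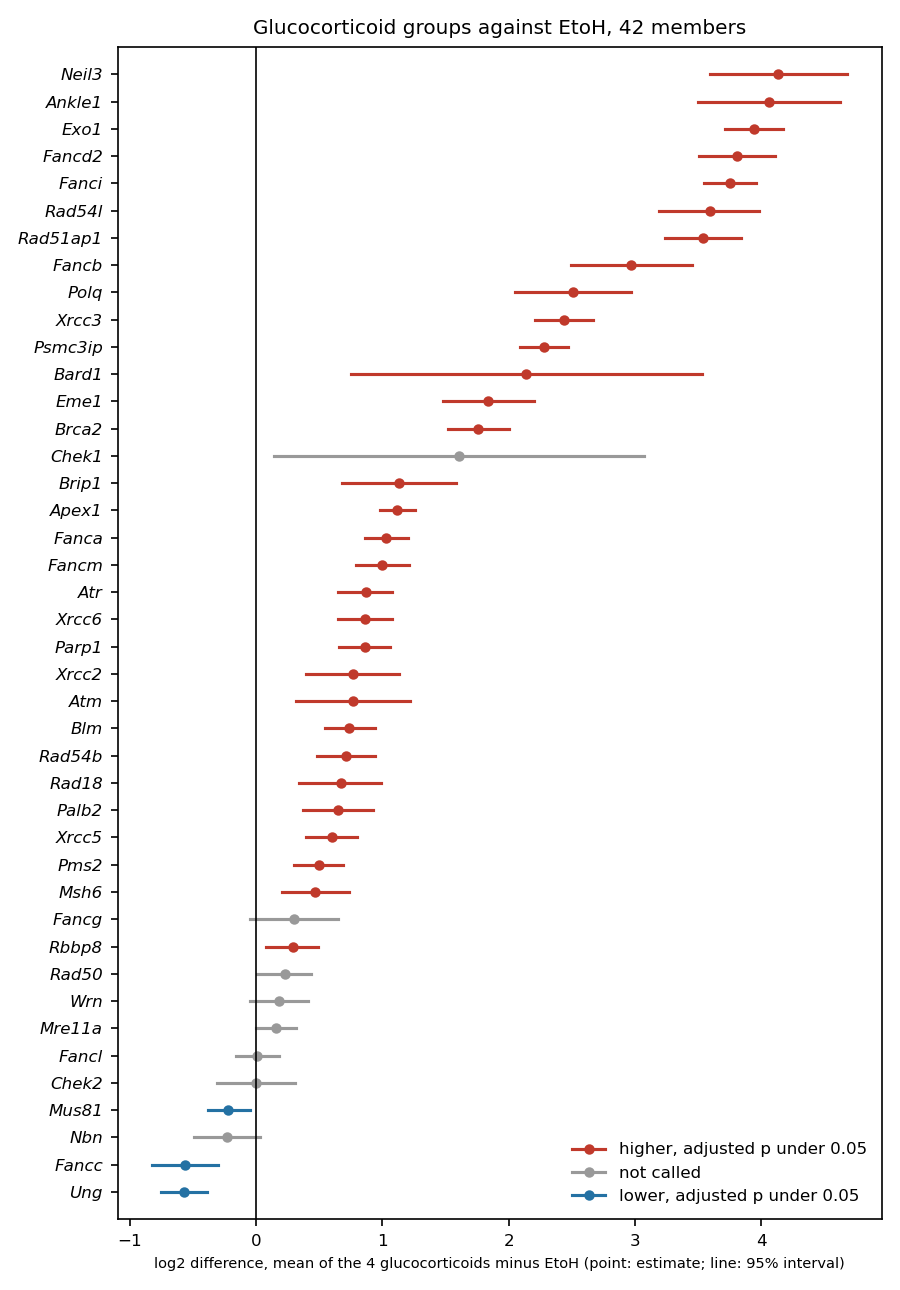
Log2 difference of the mean of the 4 glucocorticoids minus EtoH (horizontal axis) for the 42 tested members, with 95% intervals. The 31 members in red rose, the 3 in blue (Mus81, Fancc, Ung) fell, and the 8 in grey were not called.

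Each glucocorticoid was also set against EtoH alone, and the 4 comparisons share the same EtoH arrays, so they are not independent. In Dex cells, 25 of the 42 members rose and 2 fell (median log2 difference 0.71), against 16.5% higher and 15.7% lower over all genes. In FF cells, 29 rose and 3 fell (median 0.81; all genes, 17.9% and 19.2%). In VSG22 cells, 29 rose and 2 fell (median 0.99; all genes, 16.1% and 14.5%). In VSGC12 cells, 31 rose and 3 fell (median 0.88; all genes, 17.2% and 18.3%). Fanci differed from EtoH by 3.39 ± 0.11 in Dex, 3.72 ± 0.11 in FF, 4.14 ± 0.11 in VSG22 and 3.77 ± 0.11 in VSGC12. Chek1, uncalled in the mean, was called in FF alone, where it was at least 4.31-fold higher. That call was lost with the replicate block (2.56), without FF replicate 2 (1.60), without either VSGC12 replicate (2.56 in both) and without EtoH replicate 1 (2.21) or 2 (2.90). Brip1 was called in FF (1.17), VSG22 (1.45) and VSGC12 (1.15) and was 0.74 in Dex (adjusted p = 0.055). Without EtoH replicate 2 it was not called in FF (0.94) or VSGC12 (0.93), nor in VSGC12 without its replicate 1 (0.99).

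Setting the glucocorticoids against each other at the matched dose and time gave few differences. An F-test over the 4 called 0 members, against 0.255% of all genes. The member with the smallest p was Fanci (unadjusted p = 0.0018, adjusted p = 0.18). Over the 6 pairs, adjusted over all genes within each pair, 1 member was called in 1 pair. Fanci was 1.68-fold higher in VSG22 than in Dex (log2 0.75 ± 0.11, 95% interval 0.49 to 1.01, adjusted p = 0.048). That call was lost in 15 of 21 alternatives, including the fit with slide as a block (0.75) and leaving out any single array but Dex replicate 1, with differences of 0.55 to 0.84. Of all genes, 0.549% were called between VSG22 and Dex, 0.366% between FF and Dex and 0.394% between VSGC12 and Dex. Between VSG22 and FF 0% were, between VSGC12 and FF 0.00555%, and between VSGC12 and VSG22 0%. An unadjusted p under 0.05, which is not a call, was reached by 18 members (42.9%) between VSG22 and Dex, where 16.7% of all genes reached it. It was reached by 14 members (33.3%; all genes, 14.4%) between FF and Dex and by 13 (31%; all genes, 14.8%) between VSGC12 and Dex. Between VSG22 and FF the count was 5 (all genes, 9.47%), between VSGC12 and FF 1 (4.21%) and between VSGC12 and VSG22 5 (7.15%). The median 95% interval of such a difference reached 0.3 log2 units to either side, so smaller differences could not be resolved, and a missed threshold does not show that the agents act alike.

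Among the 31 members that rose, the Dex mean was the lowest of the 4 in 21 (67.7%) and the VSG22 mean the highest in 22 (71%). Of all genes that rose, 44.8% had their lowest mean in Dex and 36.1% their highest in VSG22. The median difference over the 42 members was 0.35 for VSG22 minus Dex, 0.14 for VSGC12 minus Dex and 0.10 for FF minus Dex, and these genes are not independent of each other. Eme1 was at least 1.92-fold higher than EtoH in Dex, against at least 3.27-fold in VSG22. Fancd2 and Apex1 did not show this order: the Fancd2 mean was lowest in FF, and the 4 Apex1 means were 1.09 to 1.15 above EtoH.

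**Figure D4:**
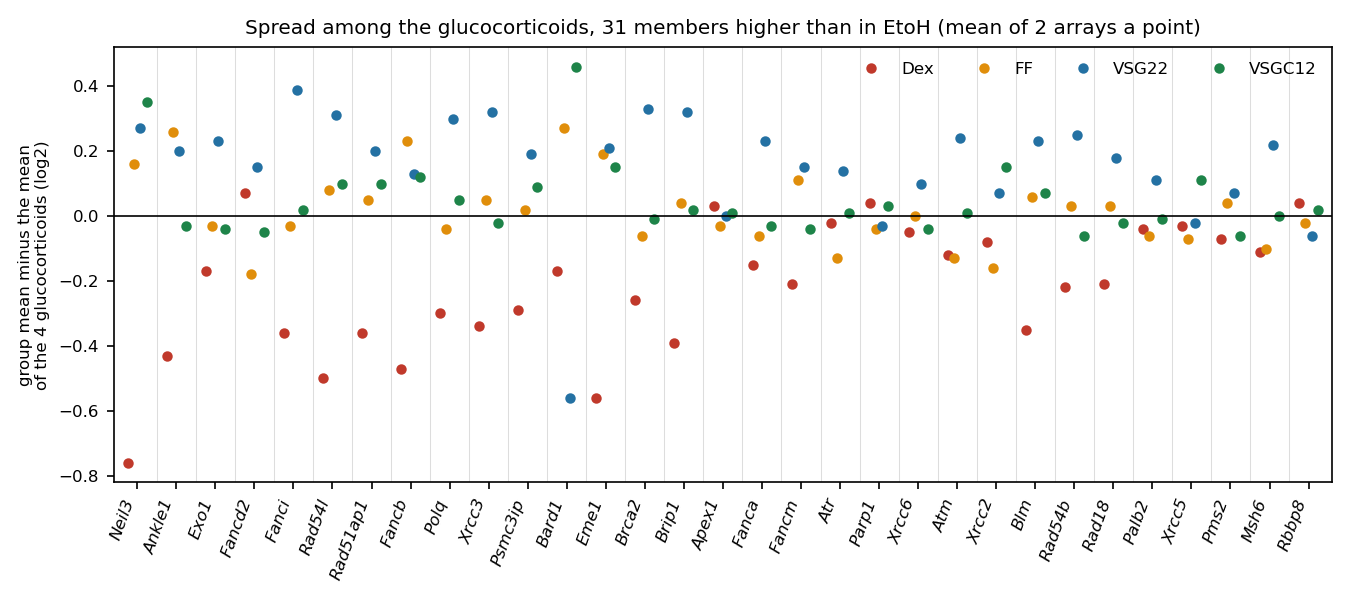
Mean of the 2 arrays of each glucocorticoid less the mean of the 4 (vertical axis, log2) for the 31 members that rose, ordered from left to right by their difference from EtoH. Dex points are mostly below 0 and VSG22 points mostly above, with Fancd2 and Bard1 among the exceptions.

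Other genes of the same pathways were listed apart from the members. Of 11 other Fanconi genes tested, 8 rose and 1 fell (median log2 difference 0.55). Ube2t, the conjugating enzyme of the core complex, was higher by 1.33 ± 0.13, Cenps by 1.03 ± 0.10 and Cenpx by 1.01 ± 0.08; the products of the last 2 bind FANCM. Among 27 other homologous recombination genes, 16 rose and 3 fell (median 0.45). Mcm8, a helicase gene, was higher by 2.14 ± 0.09 and Gen1, a nuclease for crossed strands, by 1.69 ± 0.18. Of 16 other checkpoint and damage signalling genes, 8 rose and 1 fell (median 0.42), with Clspn, the adaptor through which ATR activates CHEK1, at 2.63 ± 0.12, the kinase gene Wee1 at 1.37 ± 0.15 and the fork protection gene Timeless at 1.04 ± 0.10.

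In the lists of other repair routes, the median differences were nearer 0. For end joining, base excision and mismatch repair, the members were first taken out of the lists. As the members were chosen with earlier results of these data known, medians nearer 0 were favoured there. Other end joining genes counted 3 higher and 3 lower of 10 (median -0.05), among them Tdp1 at 0.63, Prkdc at 0.49 and the ligase gene Lig4 at -0.44. Nucleotide excision repair genes counted 5 higher and 1 lower of 18 (median 0.08), with Gtf2h5 at 1.49, Cetn2 at 0.61 and the nuclease gene Ercc5 at -0.60. Other base excision genes counted 5 higher and 1 lower of 16 (median 0.07), with Mutyh at 1.43, Fen1 at 0.78 and Nthl1 at 0.56. Translesion synthesis genes counted 2 higher and 3 lower of 10 (median -0.11), with Ube2b at -0.69, Poli at 0.63 and Rev3l at -0.51. Other mismatch repair genes counted 3 higher and 2 lower of 6 (median 0.20), with Msh3 at -0.82. These counts stand beside 21.6% higher and 22.5% lower over all genes.

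A list of genes induced by p53 after DNA damage was split: of 16 tested, 4 were higher and 6 lower (median 0.06). Plk2 differed by -1.40 ± 0.13, Mdm2, the ubiquitin ligase of p53, differed by -0.98 ± 0.10, and Trp53inp1 by -0.74 ± 0.10. Proliferation markers were higher together with the DNA repair members. Of 15, 14 rose and 0 fell (median 1.90), with the cyclin gene Ccna2 at 4.61 ± 0.15, the nucleotide synthesis gene Rrm2 at 3.27 ± 0.12 and the replicative helicase gene Mcm6 at 2.56 ± 0.09. All 15 were well above background on every array. Their summed linear signal, in units of the array's 75th percentile, lay between 253 and 333 on the glucocorticoid arrays, against at most 110 on either EtoH array. By agent, their median log2 difference from EtoH was 1.70 in Dex, 1.90 in FF, 2.13 in VSG22 and 1.85 in VSGC12. The part of proliferation in the rise of the repair genes was not tested.

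**Figure D5:**
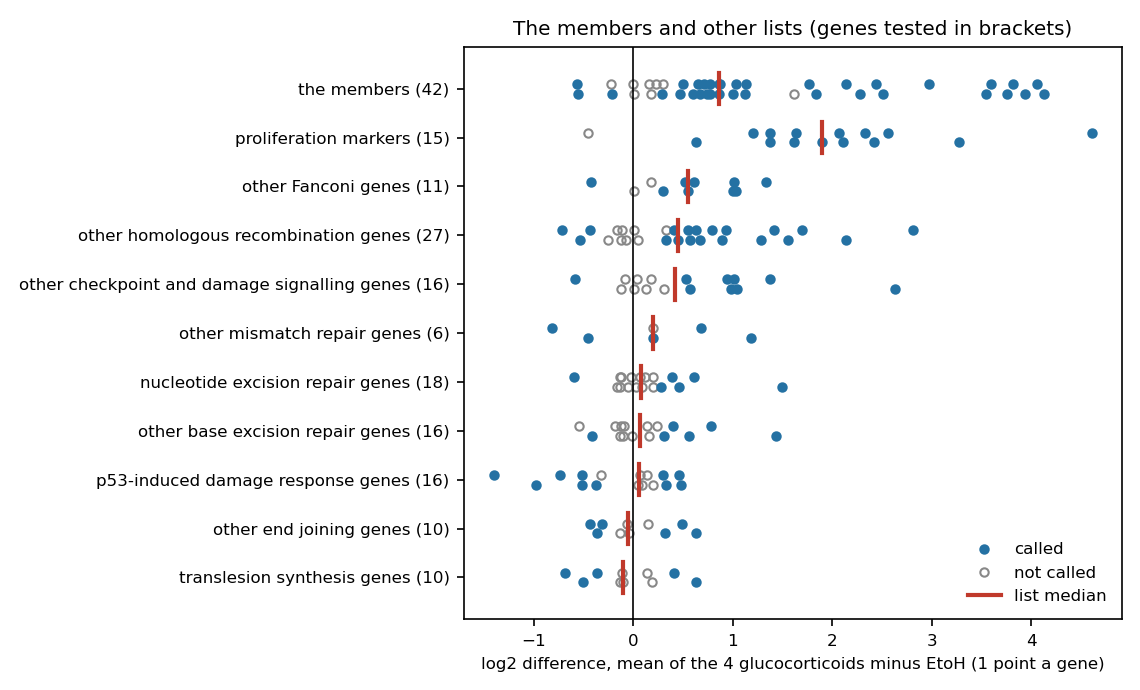
Log2 difference of the mean of the 4 glucocorticoids minus EtoH (horizontal axis), 1 point a gene, for the 42 members and 10 other lists (rows, number tested in brackets), with filled points called and a red bar at the median. The members (median 0.86) and the proliferation markers (1.90) lie to the right. The other end joining list, which leaves out the members, and the translesion list centre near 0.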

How the data were processed

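The authors deposited 1 scanner file per array, each written, per the file headers, by Agilent Feature Extraction 10.7.3.1. Its intensity values, per the file headers, include a processed signal from which background and within-array trends were removed. The deposited files also carry other columns, which are flags on each spot's detection, saturation and uniformity. In the submitters' processing notes limma is named without a step.

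Of 62976 spots, the 59305 that are not controls carry 55681 probes. Non-uniform and outlying spots were left out, log2 processed signals were averaged per probe, and the array's 75th percentile over probes was subtracted. Probes were named through RefSeq GRCm38.p6 by accession, symbol or synonym, and their positions are those of the files on mm9. No mm9 annotation was used here, so exons and untranslated regions are not given. To be tested, a gene needed a probe that was well above background on both arrays of 1 group or more, and the brightest such probe stood for it. For a gene undetected on both arrays of a group, the fold is a bound against the lowest detected signal there. Every such bound was taken from the processed signal and does not cover other background methods.

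A single limma 3.58.1 model of all 10 arrays (R 4.3.3; lmFit, then eBayes), with a term for group and 5 residual degrees of freedom, gave two-sided tests adjusted over all genes by Benjamini and Hochberg and a threshold of 0.05. No member lacked a value on any array. The fit was also run on simulated data with independent noise. It recovered 76 of 100 changes of 1 log2 unit and 96 of 100 of 2 log2 units, with 9 false calls. The number of arrays limits the precision. A spot lay in a patch where at least 3 of its 24 neighbours were well above background on that Dex array and on no array of another group.

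Members with every array's value are the 12 with the largest called difference for the mean of the 4, the 3 that fell, and any called between glucocorticoids; of each other list, up to 3 genes with the largest called differences are named, and some are counted but not reported here. Brca1 was added to these after its values were seen. The members and lists were chosen with earlier results of these data known. The alternatives were normexp background correction, quantile, array median or detected-probe percentile scaling, other filters and probe rules, non-uniform spots kept, a replicate block, moderated variance with a trend, fits of only the groups compared or without Dex arrays or patch spots, leaving out each array, and every other probe of a member, the last added after seeing the data.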

Additional observations from a re-analysis of the deposited data

How the results depend on the processing

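For the mean of the 4 glucocorticoids against EtoH, between 27 members (without EtoH replicate 1) and 34 were called when 1 array was left out, against 34 with all arrays. For Dex the range was 20 to 27, for FF 25 to 32, for VSG22 25 to 32 and for VSGC12 24 to 33. Subtracting the array median moved the median of all genes to 0.118 and the share of called genes that were higher to 70.3%, against 49.0% as processed here, 43.8% with quantile normalization and 39.3% with the percentile over detected probes. The members called were then 29 higher and 0 lower, with Ung at -0.45, Fancc at -0.44 and Mus81 at -0.09, none of them called. Over all genes 3760 were called in that setting, against 7961; 4925 were called with no filter on dim probes, 4751 without EtoH replicate 1 and 4670 without EtoH replicate 2. The number of members called between VSG22 and Dex, 1 as processed, was 0 with array medians, with no filter, with genes detected on all 10 arrays, with only the groups compared and without patch spots, and 2 with a trended and robust variance; leaving out 1 array gave 0 to 3 (3 without Dex replicate 1). VSGC12 against Dex had 0 members called, 2 with normexp, and 0 to 1 when 1 array was left out (1 without Dex replicate 2). FF against Dex had 0, and 0 to 1 when 1 array was left out (1 without Dex replicate 2). The cause was not tested.

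Fancl, at 0.01, was -0.05 with quantile normalization, -0.07 with the detected-probe percentile, 0.00 with non-uniform spots kept, and -0.01 to 0.03 when 1 array was left out. Chek2, at 0.00, was -0.04 with normexp, 0.00 with quantile normalization, -0.07 with the detected-probe percentile, -0.01 with non-uniform spots kept, and -0.05 to 0.05 when 1 array was left out. The replicate number follows the 2 slides, and deviations from the group mean correlated between same-numbered arrays with r from -0.04 to 0.32 across genes, so the numbers share a slide and were not treated as pairs. With the replicate block, 31 members rose and 3 fell, as without it, and 0 of these calls were lost. In the single comparisons it called 31 members in Dex, against 27 without it, and ended the calls of Chek1 in FF (2.56), Msh6 in VSGC12 (0.47) and Fanci between VSG22 and Dex (0.75). Sizes for probes near background are limited by signal rather than by the number of genes.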
